A study of Homo sapiens with 4 samples.

Results

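The levels of 10 transcription factor genes of the primitive streak and early mesoderm were followed through the hematopoietic differentiation of human pluripotent cells. The genes were the 5 homeobox genes MIXL1, GSC, LHX1, MSX1 and MSX2 and the 5 basic helix-loop-helix (bHLH) genes MESP1, MESP2, MSGN1, HAND1 and HAND2. They were taken by gene symbol from a table of 58274 gene identifiers, and each symbol was found. Of the 10 genes, 9 reached 1 FPKM (fragments per kilobase of transcript, scaled to the mapped fragments of the library) in at least 1 library, as did 17137 genes in all. MSGN1 did not.

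RNA sequencing had been done on the human induced pluripotent stem cell line BC1 and on 3 populations derived from it, with 1 library each. BC1 itself was undifferentiated. The others were APLNR+ mesoderm cells of day 2 of differentiation, CD31+CD34+ cells of day 5, which are progenitors with a hemogenic endothelial fate (HEPs), and CD43+ cells of day 8, the hematopoietic progenitors (HPCs). The culture medium held activin A and BMP4 over the first 2 days, and VEGF and bFGF afterwards. All libraries came from this 1 line and no population was repeated, so none of the differences has a replicate check and no test was run. The low FPKM values showed a depth between 19700000 and 23600000 mapped fragments a library, and the intervals given here, at 95%, cover the counting of these fragments only. The gene of each sorting marker was higher in the population it labels than in the one before. APLNR had 0.782 FPKM in BC1 and 1073 FPKM in the sorted mesoderm cells, PECAM1 (CD31) went from 0.460 to 93.1 FPKM and CD34 from 0.645 to 102 FPKM between mesoderm cells and HEPs, and SPN (CD43) from 11.7 FPKM in HEPs to 92.4 FPKM in HPCs. PECAM1 was higher still in HPCs, at 126 FPKM, and APLNR was at 209 FPKM in HEPs and 25.0 FPKM in HPCs. The 5 endothelial markers, which include PECAM1, summed to 1196 FPKM in HEPs against 74.1 FPKM in mesoderm cells. The 5 hematopoietic markers, which include SPN, summed to 1585 FPKM in HPCs against 217 FPKM in HEPs. In sorted bulk populations such as these, fewer cells that express a gene and less of its RNA in each cell cannot be told apart.

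Homeobox proteins bind DNA through a homeodomain, and bHLH proteins bind E-box sequences as dimers, mostly with the broadly expressed E proteins. In the gastrulating embryo, Nodal, Wnt and BMP signals induce these factors in cells that leave the primitive streak. MIXL1, GSC and LHX1 mark the streak and its anterior end and are also active in early endoderm. MESP1 and MESP2 mark nascent mesoderm, MSGN1 presomitic mesoderm, HAND1 and HAND2 lateral and heart-forming mesoderm, and MSX1 and MSX2 are targets of BMP signalling in many tissues.

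The region upstream of the start site was read for 8 of the 10 genes, all but MESP1 and LHX1, from RefSeq (GRCh38.p14) as windows from 250 bases before to 50 bases after the start. Both strands were searched for sequences bound by effectors of the pathways named above. They were AATNCACA (FOXH1, the Nodal effector), CAGACA (SMAD), ATCAAAG (TCF/LEF, the Wnt effectors) and AGGTGT (T-box factors), beside the TATA box TATAAA. The set was chosen after the windows were seen. The stretches of 4 genes are shown, all of them before the start of the coding transcript and in the direction of the gene, with matches in capitals and the other bases in lower case. MIXL1 and HAND1 had the highest levels of the 10 genes in APLNR+ mesoderm cells, and MESP2 held the most matches. HAND2, with no match, is shown as the paralog of HAND1. Whether the matches bear on the levels was not tested.

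MIXL1: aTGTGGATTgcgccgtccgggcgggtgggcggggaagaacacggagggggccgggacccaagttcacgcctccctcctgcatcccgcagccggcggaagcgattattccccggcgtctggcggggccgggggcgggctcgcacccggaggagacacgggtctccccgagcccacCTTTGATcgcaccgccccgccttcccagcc
MESP2: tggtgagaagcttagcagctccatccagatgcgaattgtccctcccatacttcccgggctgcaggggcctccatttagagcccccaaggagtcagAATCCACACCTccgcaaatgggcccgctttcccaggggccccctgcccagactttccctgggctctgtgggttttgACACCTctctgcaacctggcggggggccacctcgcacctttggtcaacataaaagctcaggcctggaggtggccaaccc
HAND1: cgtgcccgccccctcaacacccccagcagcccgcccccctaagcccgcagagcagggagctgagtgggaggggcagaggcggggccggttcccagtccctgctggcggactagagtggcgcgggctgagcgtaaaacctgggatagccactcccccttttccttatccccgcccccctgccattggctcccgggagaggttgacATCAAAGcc
HAND2: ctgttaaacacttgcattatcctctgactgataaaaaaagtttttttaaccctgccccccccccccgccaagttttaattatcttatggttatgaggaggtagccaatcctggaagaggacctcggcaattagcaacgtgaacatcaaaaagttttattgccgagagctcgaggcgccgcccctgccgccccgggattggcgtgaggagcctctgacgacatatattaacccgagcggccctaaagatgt

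The MIXL1 sequence is chr1:226223414-226223617 on the plus strand and that of MESP2 is chr15:89776082-89776331 on the plus strand. HAND1 is shown from chr5:154478265-154478477 and HAND2 from chr4:173530230-173530479, both on the minus strand. In GENCODE release 29, the MESP2 stretch lies within an intron of a longer MESP2 transcript, that of HAND2 overlaps exons of the antisense gene HAND2-AS1, and those of MIXL1 and HAND1 hold no annotated gene. In MIXL1, a reversed FOXH1 match began 249 bases before the RefSeq start and a reversed TCF/LEF match 76 bases before it. In MESP2, a FOXH1 match began 155 bases before the start and shared bases with a reversed T-box match, and another reversed T-box match began 79 bases before it. HAND1 held a TCF/LEF match 46 bases before its start. Among the members not shown, MSGN1 had a T-box match and GSC a TATA match, while MSX1 and MSX2 had no match. The FOXH1 letters were found in 3.31% of 35116 RefSeq windows of this length, the TCF/LEF letters in 2.62%, the T-box letters in 11.4%, the TATA letters in 11.5% and the SMAD letters in 16.9%. None of the 8 windows held the SMAD letters. A match is a string of letters and no measurement of binding.

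Undifferentiated BC1 cells held little transcript of any of the 10 genes, APLNR+ mesoderm cells held from 13.5 to 474 FPKM of each but MSGN1, and the later populations held little of most. The summed level of the 10 genes was 2.49 FPKM in BC1 cells, 1262 FPKM in mesoderm cells, 56.8 FPKM in HEPs and 29.8 FPKM in HPCs. Changes were computed as differences in log2(FPKM + 1), which understate the fold of low values, and a change of at least 2 was counted. From BC1 to APLNR+, all 9 members past the filter rose by at least 2, as did 2.68% of the 17137 genes. Their median change was 6.42, beside 0.00 for all genes. MIXL1 and GSC passed the filter through APLNR+ alone, so they had to differ. From APLNR+ to CD31+CD34+, 7 of the 9 fell by at least 2 (3.15% of all genes), with a median of -4.14 beside 0.01. From CD31+CD34+ to CD43+, 3 of the 9 fell by at least 2 (4.32% of all genes), with a median of -1.57 beside -0.08. This last count was 5 with a pseudocount of 0.1 (9.89% of all genes) and also 5 with a threshold of 1 (13.5%). In 8 of the 9 members, all but MSX1, the highest level was that of APLNR+, which held for 22.7% of all genes. Consecutive comparisons share a library, so a high value in APLNR+ enters both the first and the second.

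**Figure D1:**
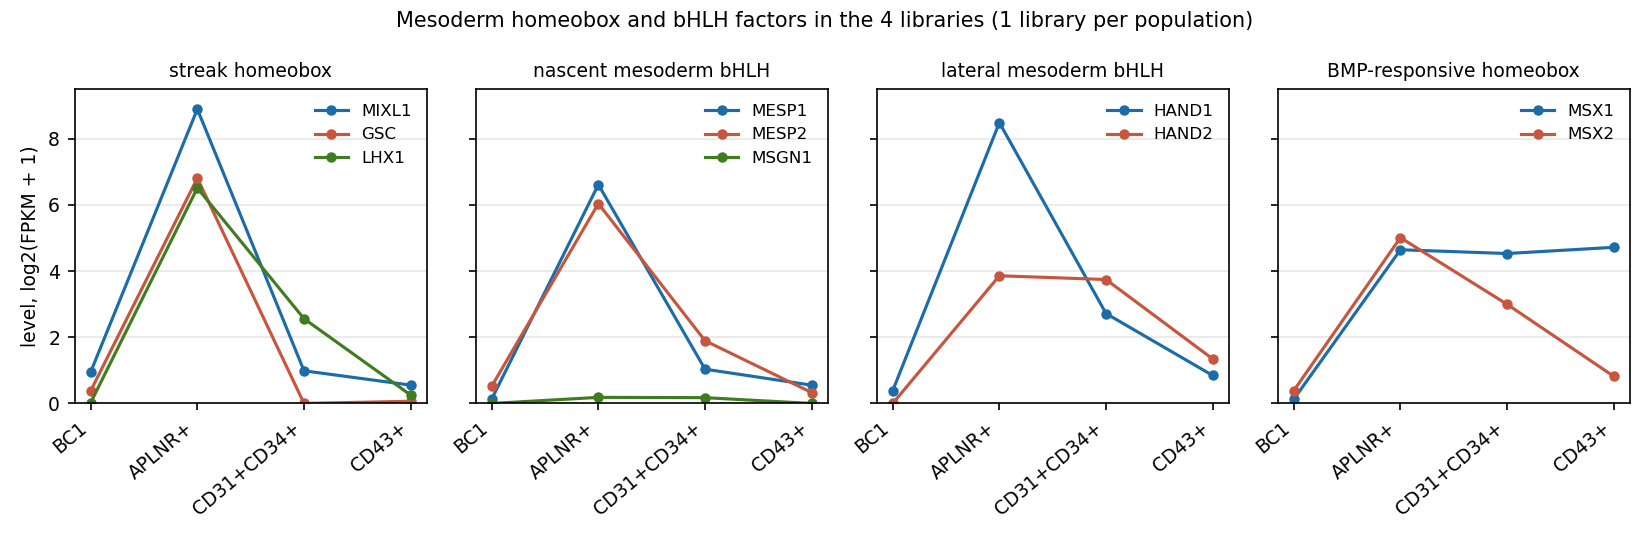
Level of each of the 10 genes, as log2(FPKM + 1), in BC1, APLNR+, CD31+CD34+ and CD43+ cells, with 1 library per point and the genes grouped by role. All genes were below 1 in BC1, and all but MSGN1 were between 3.86 and 8.89 in APLNR+. HAND2 then stayed near its level for 1 stage and MSX1 for both.

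The streak homeobox genes took 53.5% of the summed level in APLNR+ cells. MIXL1, which encodes a paired-type homeodomain protein of the streak, was at 0.931 FPKM in BC1 cells, 474 FPKM in mesoderm cells, 0.982 FPKM in HEPs and 0.468 FPKM in HPCs. Only APLNR+ stood high, and with 474 FPKM MIXL1 was 164th among the 13910 protein-coding genes past the filter there. It was 509-fold higher in APLNR+ than in BC1 (interval 338 to 835) and 483-fold lower in CD31+CD34+ than in APLNR+ (335 to 753). The next difference, 2.10-fold lower in CD43+ (1.03 to 4.83), rested on an estimated 26 and 11 fragments. Its interval included 1 once the libraries were rescaled to the same median ratio (0.241 to 1.09 as the ratio of HPCs to HEPs).

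GSC, the goosecoid repressor of the anterior streak and organizer, was at 0.303 FPKM in BC1 cells, 111 FPKM in mesoderm cells, 0 in HEPs and 0.0472 FPKM in HPCs. Of the 10 genes it was the one listed at 0 in HEPs. It was 366-fold higher in APLNR+ than in BC1 (168 to 997) and at least 859-fold lower in CD31+CD34+ than in APLNR+, counted against a floor of 3 fragments. No fold is given between HEPs and HPCs, where 0 and 1 fragments were found. LHX1, a LIM homeobox factor of the anterior streak and later of kidney precursors, was at 0.016 FPKM in BC1 cells, 90.1 FPKM in mesoderm cells, 4.90 FPKM in HEPs and 0.192 FPKM in HPCs. HEPs held 5.43% of the APLNR+ level of LHX1, against 0.207% for MIXL1 and none for GSC. LHX1 was 18.4-fold lower in CD31+CD34+ than in APLNR+ (15.9 to 21.4) and 25.5-fold lower again in CD43+ (12.1 to 64.0). Its ratio of APLNR+ to BC1, 5614 (544 to 119770), rested on 1 fragment in BC1. With the longest transcript for the fragments, the interval was 1007 to 221833.

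Of the nascent mesoderm bHLH genes, MESP1 and MESP2 had a similar course and MSGN1 was not detectable above the floor. MESP1, which marks the earliest cardiovascular mesoderm, was at 0.0963 FPKM in BC1 cells, 96.8 FPKM in mesoderm cells, 1.05 FPKM in HEPs and 0.466 FPKM in HPCs. MESP2, its neighbour and a segmentation factor of presomitic mesoderm, was at 0.432 FPKM in BC1 cells, 64.7 FPKM in mesoderm cells, 2.72 FPKM in HEPs and 0.256 FPKM in HPCs. Both were highest in APLNR+ by a wide margin. From BC1 to APLNR+, MESP1 was 1005-fold higher (392 to 3691) and MESP2 150-fold higher (78.8 to 361). In HEPs, MESP1 was 91.8-fold lower than in mesoderm cells (69.8 to 123) and MESP2 23.8-fold lower (18.5 to 31.5), intervals that do not overlap. MSGN1, a driver of presomitic mesoderm, was at 0 in BC1 cells, 0.136 FPKM in mesoderm cells, 0.129 FPKM in HEPs and 0 in HPCs. These values stand for 0, 1, 1 and 0 fragments, so no fold is given.

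The lateral mesoderm bHLH genes parted after the mesoderm stage. HAND1 was at 0.309 FPKM in BC1 cells, 357 FPKM in mesoderm cells, 5.57 FPKM in HEPs and 0.796 FPKM in HPCs. HAND2 was at 0 in BC1 cells, 13.5 FPKM in mesoderm cells, 12.4 FPKM in HEPs and 1.54 FPKM in HPCs. HAND1 thus peaked in 1 population, 214th among protein-coding genes in APLNR+, while HAND2 stood at similar levels in mesoderm cells and HEPs. HAND1 was 1155-fold higher in APLNR+ than in BC1 (608 to 2526), and HAND2 at least 159-fold higher. From APLNR+ to CD31+CD34+, HAND1 was 64.0-fold lower (55.5 to 74.2), whereas the ratio for HAND2 was 1.09-fold lower with an interval of 0.960 to 1.23 that includes 1. In HPCs, HAND1 was 7.0-fold lower than in HEPs (4.60 to 11.1) and HAND2 8.04-fold lower (6.14 to 10.7).

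MSX1 was the only member that stayed near its mesoderm level in both later populations. It was at 0.0907 FPKM in BC1 cells, 24.0 FPKM in mesoderm cells, 22.1 FPKM in HEPs and 25.3 FPKM in HPCs. Its 3 later values lay close together, and MSX1 in HPCs was at 105% of its level in mesoderm cells. MSX2 was at 0.307 FPKM in BC1 cells, 31.2 FPKM in mesoderm cells, 6.98 FPKM in HEPs and 0.765 FPKM in HPCs, a decline over both later stages. From BC1 to APLNR+, MSX1 was 265-fold higher (90.3 to 1287, with 3 fragments in BC1) and MSX2 101-fold higher (52.1 to 218). From APLNR+ to CD31+CD34+, MSX1 was 1.09-fold lower (0.989 to 1.20, which includes 1, though with rescaled libraries the ratio of HEPs to mesoderm cells was 0.882, from 0.801 to 0.973) and MSX2 4.47-fold lower (3.88 to 5.18). The change of MSX2 there, -2.01 on the log2 scale, lay just past the threshold. From CD31+CD34+ to CD43+, MSX1 was 1.14-fold higher (1.04 to 1.26) and MSX2 9.12-fold lower (5.88 to 14.3).

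**Figure D2:**
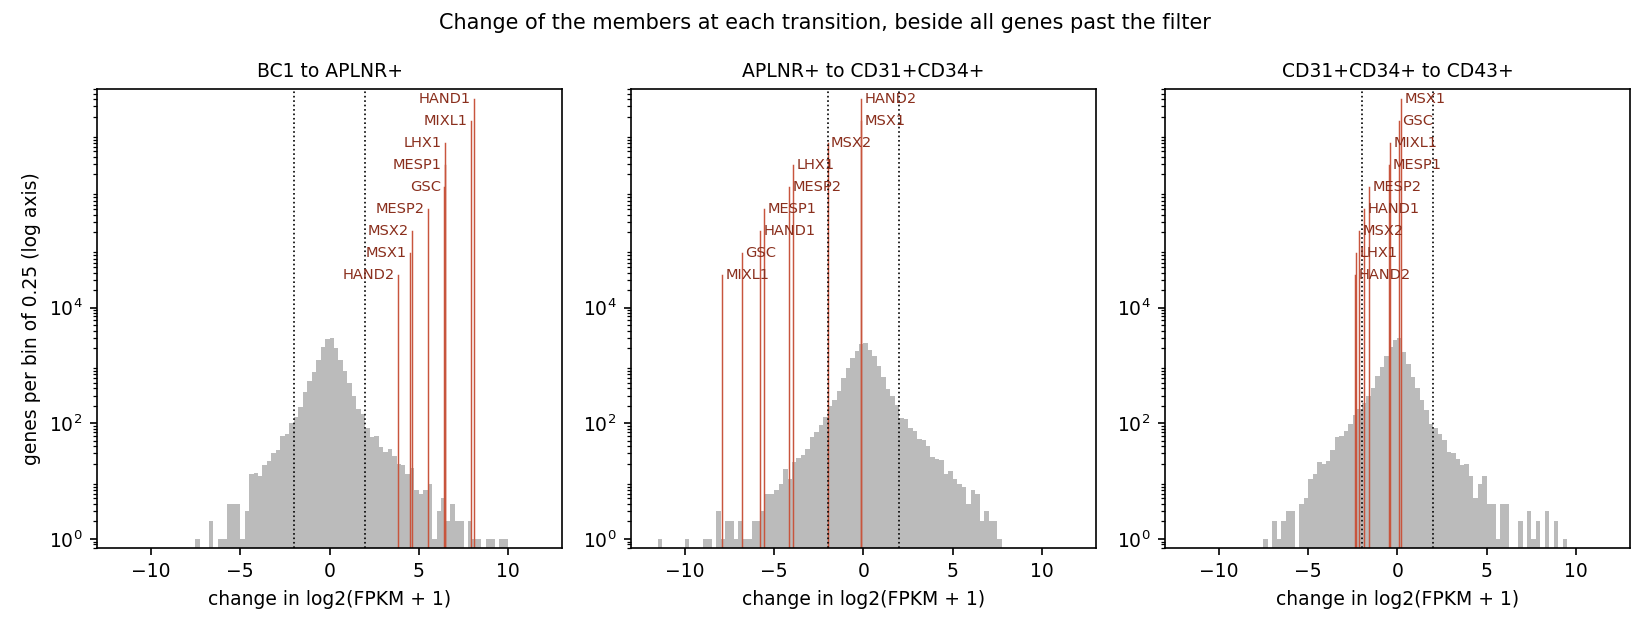
Number of genes past the filter by their change in log2(FPKM + 1) at each of the 3 transitions, in bins of 0.25 on a log axis, with the 9 members as lines whose height only separates their names. Dotted lines mark changes of 2 in either direction. The members lie at 3.86 and above at the first transition, and all but HAND2 and MSX1 lie at -2.01 or below at the second.

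At the last transition, the members that fell by at least 2 on the log2 scale were LHX1 (-2.31), HAND2 (-2.40) and MSX2 (-2.18). HAND1 (-1.87) and MESP2 (-1.57) did not reach the threshold, and MIXL1 and MESP1, already near 1 FPKM in HEPs, changed by -0.43 and -0.49. The fall of HAND1 to HPCs was also smaller on this scale than its fold because its value there was under 1 FPKM.

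As a share of the level in APLNR+ mesoderm cells, HEPs kept 92.1% of HAND2, 91.9% of MSX1, 22.4% of MSX2, 5.43% of LHX1, 4.2% of MESP2, 1.56% of HAND1, 1.09% of MESP1 and 0.207% of MIXL1. Homeobox and bHLH genes are mixed in this order. In the paralog pairs, the member with the larger share was HAND2, MSX1 and MESP2. In HPCs, the shares were 105% for MSX1, 11.5% for HAND2, 2.45% for MSX2 and under 0.5% for each of the other 6 members past the filter. The makeup of the summed level changed accordingly. In HEPs, the MSX genes took 51.1% of it, the HAND genes 31.7%, the streak homeobox genes 10.3% and the nascent mesoderm bHLH genes 6.87%. In HPCs, MSX1 alone took 84.8%.

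**Figure D3:**
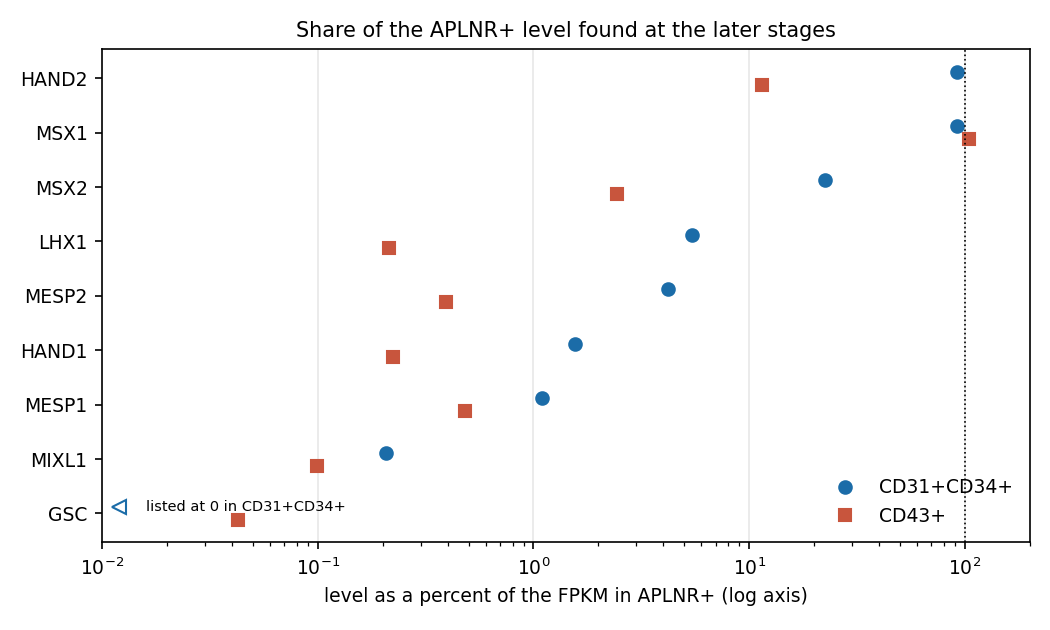
Level of each of the 9 members past the filter in CD31+CD34+ and CD43+ cells as a percent of its FPKM in APLNR+ cells, on a log axis with the dotted line at 100%. MSX1 sits at the line in both, HAND2 at 92.1% and then 11.5%, and the other members lie at 22.4% or below in CD31+CD34+, with GSC listed at 0.

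A comparison of both ends of the series asked what was left in HPCs relative to the pluripotent cells. MSX1 was 279-fold higher in CD43+ than in BC1 (95 to 1353) and was the 1 member to rise by at least 2 on the log2 scale, as 5.37% of all genes did (2 members with a pseudocount of 0.1 or a threshold of 1). HAND2 was at least 18.2-fold higher, MESP1 4.84-fold higher (1.64 to 19.5), HAND1 2.58-fold higher (1.16 to 6.28) and MSX2 2.49-fold higher (1.11 to 6.06), although MESP1, HAND1 and MSX2 stayed under 1 FPKM in both populations. For MIXL1, MESP2, GSC and LHX1 the interval of the ratio included 1.

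FPKM is per length, so paralogs were compared within a library. The intervals do not cover differences between 2 genes in sequence bias or in the transcript length assumed for them. MESP1 was lower than MESP2 in BC1 by 4.49-fold (1.16 to 19.6, from 4 and 8 fragments) and higher in APLNR+ by 1.5-fold (1.41 to 1.59). In CD31+CD34+ the order was again the opposite, with MESP1 2.58-fold lower (1.74 to 3.78), and in CD43+ the ratio of 1.82 in favour of MESP1 had an interval of 0.706 to 6.53. HAND1 was 26.5-fold above HAND2 in APLNR+ (24.2 to 29), but 2.23-fold below it in CD31+CD34+ (1.88 to 2.64) and 1.94-fold below it in CD43+ (1.19 to 3.22). In BC1, HAND1 was at least 3.65-fold above HAND2. MSX1 was 1.30-fold below MSX2 in APLNR+ (1.18 to 1.43), 3.16-fold above it in CD31+CD34+ (2.74 to 3.67) and 33.0-fold above it in CD43+ (21.7 to 50.9), while in BC1 the interval included 1. As listed, the order within each of the 3 pairs was thus different in mesoderm cells and in HEPs. For the MESP and MSX pairs this rests on small ratios in APLNR+, 1.5 and 1.30, which a bias between genes could also give.

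**Figure D4:**
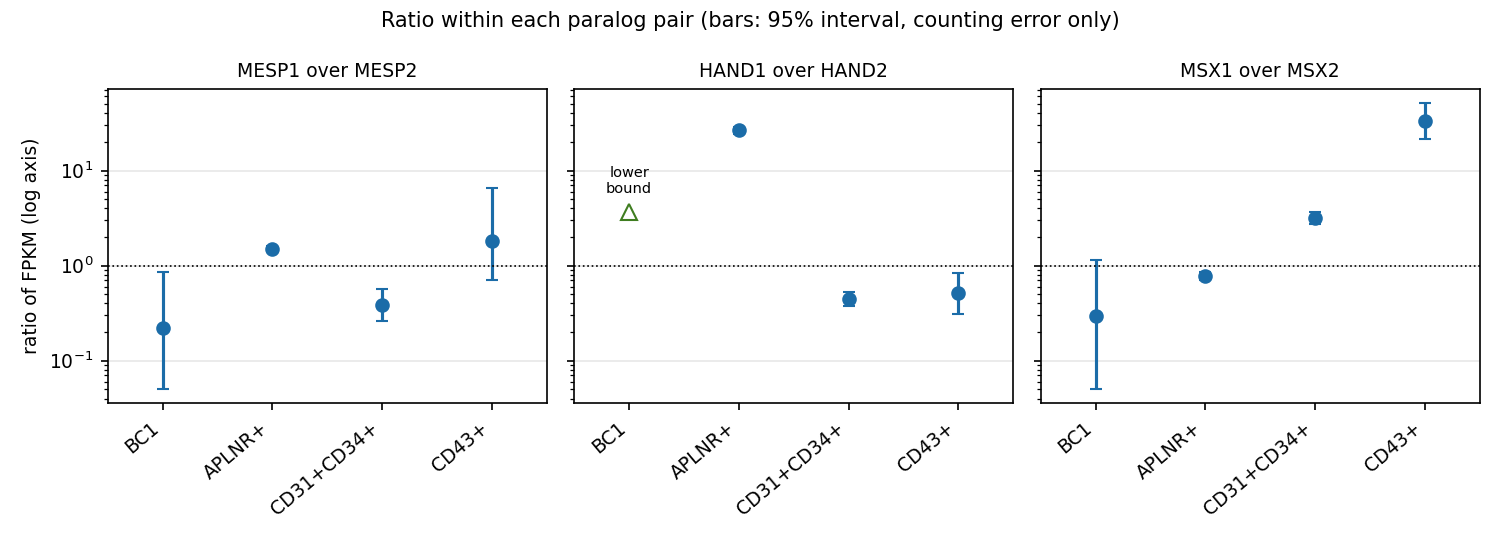
Ratio of FPKM within the pairs MESP1 and MESP2, HAND1 and HAND2, and MSX1 and MSX2 in each library, on a log axis with the dotted line at equal levels and bars for the 95% interval from counting. Each pair crosses the line between APLNR+ and CD31+CD34+, and the triangle for HAND1 over HAND2 in BC1 is a lower bound of 3.65.

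Reads from near-identical stretches could be split between paralogs, so the coding sequences of each pair were compared in GENCODE release 29. The longest stretch that both members hold without a difference is given for each pair, since a read within it fits both equally. Longer stretches with a few differences were not searched, so a split of reads between paralogs was not tested.

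MESP1 and MESP2: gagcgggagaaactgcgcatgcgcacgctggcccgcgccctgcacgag
HAND1 and HAND2: gccaccagctacatcgcctacct
MSX1 and MSX2: cctgcccttcagcgtggaggcgctcatg

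The run of MESP1 and MESP2 was 48 bases long (coding bases 265 to 312 of MESP1), that of HAND1 and HAND2 23 bases (415 to 437 of HAND1) and that of MSX1 and MSX2 28 bases (174 to 201 of MSX1). No word of 50 bases was shared between the transcripts of any pair. The HAND and MESP runs lie in the part that encodes the bHLH domain.

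The loci, on GRCh38, were on several chromosomes. MIXL1 lies on chromosome 1 (226223618 to 226227054), MSGN1 on chromosome 2 (17816496 to 17817101), LHX1 on chromosome 17 (36936785 to 36944612) and GSC on chromosome 14 (94768216 to 94770230). MSX1 (4859666 to 4863936) and HAND2 (173524969 to 173530229) are both on chromosome 4, and HAND1 (154474972 to 154478264) and MSX2 (174724533 to 174730893) both on chromosome 5. MESP1 (89748661 to 89751310) and MESP2 (89760591 to 89778754) lie on chromosome 15 on opposite strands, with 9280 bases between the annotated genes. The MESP2 span includes a longer transcript, and the MESP2 start used for the promoter stretch was at 89776332, farther from MESP1. The values are for whole genes and do not separate their transcripts.

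Of the genes within 20000 bases, HAND2-AS1 overlaps HAND2 on the other strand and was at 0 in BC1 cells, 1.77 FPKM in mesoderm cells, 3.88 FPKM in HEPs and 0.494 FPKM in HPCs. Whether strand was used in counting is not stated, so reads of HAND2 and HAND2-AS1 in the shared part cannot be told apart. AC243773.1, which overlaps LHX1 on the other strand, had no measurable level in any library. AC243773.2, an antisense gene 123 bases from LHX1, was also highest in APLNR+, at 0.266, 7.43, 1.38 and 0 FPKM in the order of differentiation. ANPEP, 6134 bases from MESP2 and encoding the aminopeptidase CD13, was at 1.65, 31.8, 21.5 and 3.39 FPKM. AATF, 4262 bases from LHX1, was at 21.6, 42.7, 23.9 and 15.6 FPKM. The protein-coding neighbours LIN9 of MIXL1, SMC6 of MSGN1 and SAP30L of HAND1 stayed between 2.51 and 15.9 FPKM in every library, and WDR93 near the MESP genes did not pass 0.565 FPKM. The pseudogenes AC079075.1 near the MESP genes and AC026688.1 near HAND1, and the noncoding genes AC026688.2 near HAND1 and LINC01396 near MSX1, had at most 0.310 FPKM.

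For each member that reached 10 FPKM, the protein-coding genes with the most similar course were taken as those with the smallest root mean squared difference in log2(FPKM + 1) over the 4 libraries, among 8923 genes that reached 10 FPKM. Closest to MIXL1 were BMP2, a BMP ligand (0.38), MFAP4 (0.54) and CYP26A1, which degrades retinoic acid (0.66). Closest to GSC were EOMES, a T-box factor of the streak (0.48), GRP (0.69) and ALPK2 (0.83). Near LHX1 were PLXNA2, a semaphorin receptor (0.58), and FOXF1, a forkhead factor (0.63). MESP1 was nearest to ALPK2 (0.64), MYL7, a cardiac myosin light chain (0.68), and EOMES (0.70), and MESP2 to SLCO2A1 (0.34), MYL7 (0.46) and SEMA6D (0.47). For HAND1 they were PLXNA2 (0.59), BMP4 (0.77) and HAS2 (0.85), and for HAND2 ADAMTS9 (0.40), ZAP70 (0.41) and PLPP4 (0.44). MSX2 had the smallest distances of all members, to FOXC1, a forkhead factor (0.28), FAM20A (0.30) and the homeobox gene HLX (0.32). FOXC1 was at 0.0416, 24.1, 6.23 and 0.496 FPKM in the order of differentiation, beside the values of MSX2 given above. The neighbours of MSX1 were RAI1 (0.47), BAHCC1 (0.51) and HOXB2 (0.51), and HOXB2 was at 0.115, 17.0, 42.0 and 28.4 FPKM. With 4 libraries many genes share a course, and the measure favours genes of like level.

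Proteins that pair with the members or hold them off were then listed. The E proteins, with which MESP and HAND proteins dimerize, were present in every library. TCF3 was at 312 FPKM in BC1 cells, 474 FPKM in mesoderm cells, 242 FPKM in HEPs and 133 FPKM in HPCs, TCF4 between 28.8 and 88.2 FPKM and TCF12 between 21.7 and 33.3 FPKM. None of the 3 passed a log2 change of 2 at any transition, where 2.29% of all genes fell by as much at the first and 2.28% rose at the last. TCF3 and TCF4, like most members, were highest in APLNR+. The ID proteins, which bind E proteins and block DNA binding, were highest in HEPs. ID1 was at 108 FPKM in BC1 cells, 49.5 FPKM in mesoderm cells, 636 FPKM in HEPs and 18.7 FPKM in HPCs, and ID3 at 35.5, 42.4, 159 and 3.30 FPKM. ID2 alone rose by at least 2 at the first transition, ID1 and ID2 rose at the second (4.08% of all genes), and ID1, ID2 and ID3 fell at the last, ID3 by 48.1-fold (37.9 to 62.0). Of the 6 cofactors of LIM homeobox proteins such as LHX1, LDB2 rose at the first transition, SSBP2 at the second, and LDB2 fell at the last, 36.8-fold (32.6 to 41.6), while LDB1 was at 80.3, 106, 134 and 270 FPKM.

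**Figure D5:**
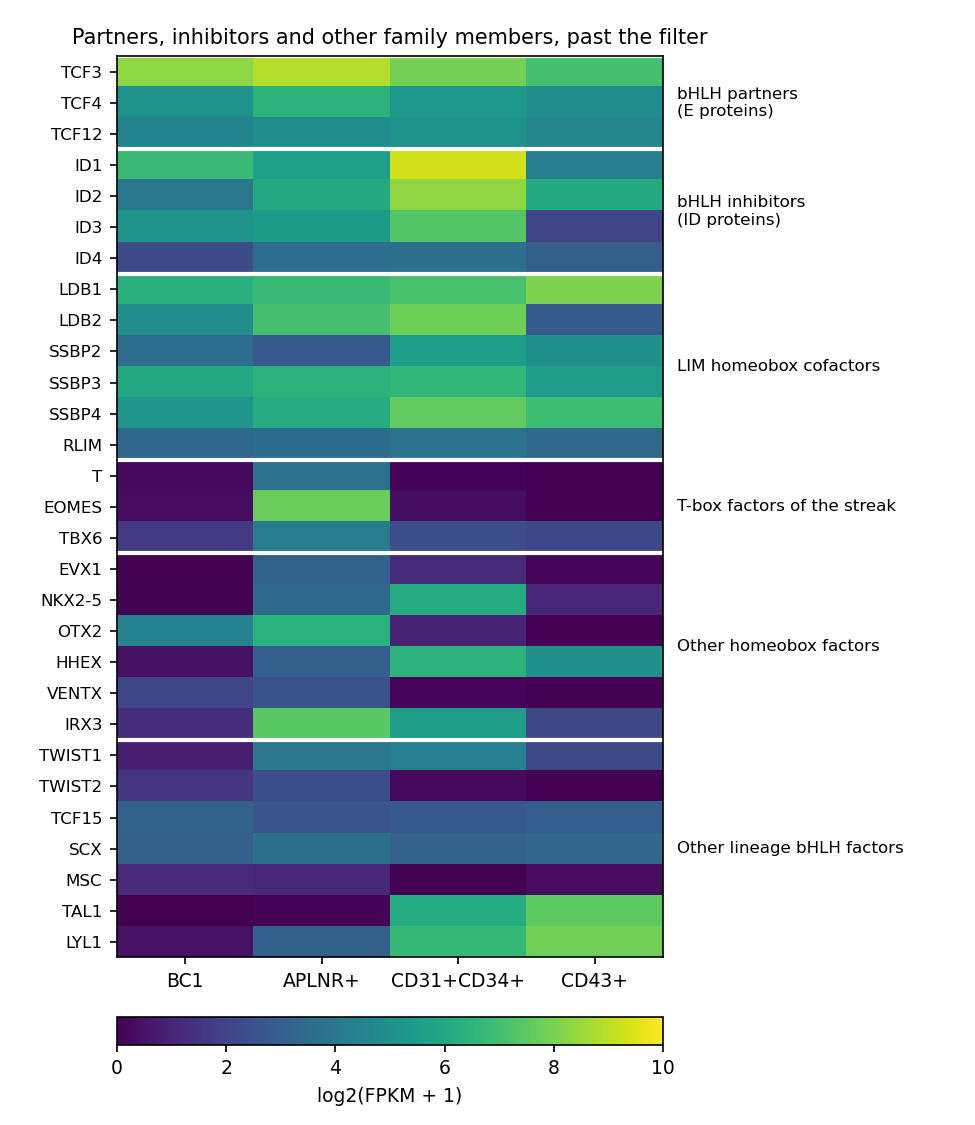
Level as log2(FPKM + 1) of the partners, inhibitors and cofactors of the members, and of other T-box, homeobox and bHLH factors past the filter, in the 4 libraries. The E proteins TCF3, TCF4 and TCF12 are present throughout, ID1, ID2 and ID3 are brightest in CD31+CD34+, and EOMES and IRX3 are brightest in APLNR+.

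Of the pathways named above as inducers in the embryo, Nodal with activin and BMP were given by lists of their genes. Wnt genes were not listed, and induction of the members by any pathway was not tested here. All 12 genes of the Nodal and activin list passed the filter, and CER1, a secreted Nodal and BMP inhibitor, was the 1 that rose by at least 2 at the first transition, 1199-fold (900 to 1630). NODAL itself was 4.08-fold lower (2.81 to 6.28) at that step. The Nodal inhibitors LEFTY1 and LEFTY2 were 4.2-fold (3.24 to 5.5) and 2.08-fold lower (1.65 to 2.67). In log2(FPKM + 1), which understates the fold of low values, these changes were -1.49, -1.85 and -0.83 and were not counted. CER1 and TDGF1, the Nodal coreceptor, fell from APLNR+ to CD31+CD34+, TDGF1 by 465-fold (300 to 742), and none changed by at least 2 at the last transition. FOXH1 changed by -1.99 from APLNR+ to CD31+CD34+, from 37.6 FPKM in mesoderm cells to 8.76 FPKM in HEPs. Of the 11 genes of the BMP list, 10 passed the filter. BMP2, BMP4, SMAD9 and SMAD6 rose with the members at the first transition, BMP4 by 167-fold (124 to 234) and the inhibitory SMAD6 by 64.2-fold (53.8 to 77.1). BMP2, BMP4 and BMP7 fell at the second, BMP4 by 25.3-fold (22.7 to 28.4), and BMP4, SMAD6 and SMAD7 at the third. The T-box factors of the streak, T, EOMES and TBX6, all rose at the first transition, and T and EOMES fell at the second. EOMES was at 0.244, 205, 0.280 and 0 FPKM in the order of differentiation.

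Several of the 10 genes are also used outside mesoderm, so marker lists of other tissues are given beside them, with sums in the order BC1, APLNR+, CD31+CD34+ and CD43+. The 6 definitive endoderm markers, which include HHEX, summed to 197, 503, 169 and 91.6 FPKM, with 2, 4, 5 and 3 of them at 1 FPKM or more. In APLNR+, the highest of them was APOA2 at 470 FPKM, SOX17 was at 16.6 FPKM and FOXA2 at 0.588 FPKM. The endoderm sum was highest in the same library as 8 of the members, but APOA2 gave most of it there and in BC1, where APOA2 was at 193 FPKM. SOX17, TTR and FOXA2 were also highest in APLNR+, though FOXA2 was already at 0.522 FPKM in BC1. HHEX and FOXA1 were highest in CD31+CD34+, at 87.9 and 1.56 FPKM. The 8 presomitic markers summed to 39.9, 163, 50.2 and 15.2 FPKM, with 5, 4, 5 and 5 of them at 1 FPKM or more, and DLL3 gave 137 FPKM of the sum in APLNR+. TBX6 was also highest in APLNR+, at 17.5 FPKM. LFNG was lowest there, at 18.9, 1.72, 31.8 and 1.86 FPKM in the order of differentiation. LFNG, HES7 and DLL1 were highest in HEPs, with HES7 at 3.23 FPKM and DLL1 at 0.834 FPKM. RIPPLY2, MEOX1 and TCF15 were highest in BC1, though TCF15 stayed between 5.19 and 7.72 FPKM in every library. MEOX1 was listed at 0 in the differentiated populations and RIPPLY2 in HEPs and HPCs. For the 6 cardiac markers the sums were 24.3, 63.1, 73.0 and 1.51 FPKM, with 1, 3, 2 and 1 of them at 1 FPKM or more, and TNNT2, MYL7 and TNNI1 were at 0 in HPCs. The sum was carried by MYL7 in mesoderm cells (51.7 FPKM, and 1.39 FPKM in HEPs) and by NKX2-5 in HEPs (69.2 FPKM, after 9.77 FPKM in mesoderm cells). In BC1 it was carried by TNNT2, which went the other way, at 22.5, 1.20, 0.178 and 0 FPKM. TNNI1 was also highest in BC1, at 0.567 FPKM, and MYH6 and ISL1 were highest in HEPs, at 0.928 and 0.985 FPKM. The 6 trophoblast and amnion markers summed to 12.5, 32.8, 43.8 and 3.62 FPKM, with 3, 2, 2 and 1 of them at 1 FPKM or more. GATA3 gave 30.0 FPKM of it in APLNR+ and 40.1 FPKM in CD31+CD34+, and KRT7 and CGA were at 0 in HEPs and HPCs. KRT7, GABRP and TFAP2C were highest in BC1, at 8.03, 2.91 and 1.15 FPKM, whereas GATA3 and TFAP2A were highest in CD31+CD34+. The 5 neural crest markers summed to 48.6, 1.85, 4.27 and 0.572 FPKM, with 2, 1, 1 and 0 of them at 1 FPKM or more. FOXD3 led the sum in BC1. SOX10 led it in the others, at 1.47, 4.22 and 0.572 FPKM, and gave all of it in HPCs, where PAX3, PAX7, TFAP2B and FOXD3 were at 0. PAX7 and TFAP2B were also at 0 in HEPs. The 7 stromal markers summed to 163, 162, 279 and 39.2 FPKM, with 4, 4, 5 and 4 of them at 1 FPKM or more, LUM at 0 in BC1 and DCN at 0 in HEPs and HPCs. Their courses differed. TAGLN was highest in BC1 and gave 129 FPKM there and 117 FPKM in APLNR+. PDGFRA, LUM and DCN were highest in APLNR+, at 14.3, 0.963 and 0.301 FPKM. COL1A1, COL3A1 and PDGFRB were highest in HEPs, at 184, 8.94 and 6.69 FPKM. POU5F1, a pluripotency factor, was at 573 FPKM in APLNR+, where SOX2 was at 0.766 FPKM. The part of these cell types in the levels of the 10 genes was not tested.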

How the data were processed

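Total RNA libraries of BC1, APLNR+, CD31+CD34+ and CD43+ cells, 1 each, had been made with an Illumina TruSeq kit. The authors deposited gene-level FPKM values. The submitters' processing notes name BWA, Bowtie, RSEM and hg19 with no role or version, but of 58274 gene identifiers 58011 were found in GENCODE release 29, and 55645 of the 55647 with the same version had the same start and end on GRCh38, which is used here. Rows of the 90 identifiers on several rows were summed, and columns were assigned by name. The filter kept the 17137 genes (13910 protein-coding) that reached 1 FPKM in any library, and changes were computed on log2(FPKM + 1) with a pseudocount of 1 and a threshold of 2.

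Depth was recovered from the steps between low FPKM values of genes with 1 transcript of at least 1000 bases: 19700000, 21400000, 23600000 and 21500000 mapped fragments in the order of differentiation, with 93.3% to 95.1% of the values used within 0.1 of a whole number. The fragments of a gene were estimated with the median length of its coding transcripts and rounded to whole numbers. They depend on that length: MIXL1 in APLNR+ had 11790, or 17705 with the longest transcript. Folds carry exact Clopper-Pearson 95% intervals from these fragments, and the floor was 3 fragments. A fold against 0 fragments is a bound, and 1 to 3 fragments give a ratio with its interval. Intervals hold for counting error and leave out differences between cultures and between sorts. No count model was used, since FPKM values are not counts, and no p-value was computed.

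The members and all gene lists were chosen with earlier results of these data known. Named were the members, genes within 20000 bases of them and the 3 protein-coding genes of most similar course. In each list other than the marker lists, the genes with a counted change or the largest one were named too. Of the marker lists, not every gene with a counted change was named. Further list genes (TCF4, TCF12, LDB1, NODAL, LEFTY1, LEFTY2, FOXH1 and single markers such as SOX10 or those listed at 0) were named after their values were seen. A gene that this rule also named is not reported here. Alternatives were another pseudocount, threshold, filter, scaling, transcript length and treatment of repeated rows. Promoter windows came from RefSeq (GRCh38.p14). Python 3.11.15, numpy 2.4.6, pandas 2.3.3 and scipy 1.17.1 were used, and the scripts were tested on simulated data.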

Additional observations from a re-analysis of the deposited data

How the results depend on the processing

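The counts of members with a rise of at least 2 from BC1 to APLNR+ (9), with a fall from APLNR+ to CD31+CD34+ (7) and with the highest level in APLNR+ (8) stayed within 1.5 times under every alternative tried. The count falling from CD31+CD34+ to CD43+ went from 3 to 5 with a pseudocount of 0.1 (9.89% of all genes) and to 5 with a threshold of 1 (13.5%). The count rising from BC1 to CD43+ went from 1 to 2 with a pseudocount of 0.1 (10.1%) and to 2 with a threshold of 1 (15.2%), alternatives chosen after seeing the data. A smaller pseudocount or threshold counts more genes by construction. Rescaling each library to the same median ratio moved the median change of all genes at the last transition from -0.08 to 0.00, and MSX1 from 1.14-fold to 1.27-fold higher there (1.16 to 1.40). Under it, the ratio of MSX1 in CD31+CD34+ to APLNR+ became 0.882 (0.801 to 0.973), an interval that no longer includes 1, and that of MIXL1 in CD43+ to CD31+CD34+ became 0.529 (0.241 to 1.09), which now does. The other 25 rescaled folds, and all 26 with the longest transcript and all 26 with the highest row of an identifier, kept their direction, and those with a counting interval moved by less than it. The bounds have none: HAND2 from BC1 to APLNR+ went from at least 159-fold to at least 157-fold when rescaled and at least 223-fold with the longest transcript, and GSC in CD31+CD34+ from at most 0.00116 to at most 0.00118 of its APLNR+ level when rescaled. The number of member folds whose interval or bound excludes 1 was 24 of 30, and of paralog ratios 10 of 12, under each alternative run. No paired analysis was possible because each population had 1 library. Under 3 fragments, as for MSGN1, levels could not be told from 0 at this depth, and 1 library per population leaves the variation between cultures unmeasured.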

Other observations

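Other homeobox and bHLH factors of the mesoderm and its derivatives, which were not among the 10 genes, are given as values. Of 14 other homeobox genes, 6 passed the filter, and EVX1, NKX2-5, HHEX and IRX3 rose by at least 2 on the log2 scale from BC1 to APLNR+. NKX2-5, a heart factor, and HHEX, a factor of endothelium, blood and endoderm, rose again in CD31+CD34+, while OTX2 and VENTX fell. NKX2-5 was at 0.0350 FPKM in BC1 cells, 9.77 FPKM in mesoderm cells, 69.2 FPKM in HEPs and 1.23 FPKM in HPCs. HHEX was at 0.380, 7.13, 87.9 and 31.5 FPKM in the same order, so both were highest in HEPs. In HPCs, NKX2-5 and IRX3 fell, NKX2-5 by 56.2-fold (36.7 to 91.4). CDX1, CDX2 and CDX4, MEOX1 and MEOX2, ISL1, PRRX1 and NOTO were under the filter.

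Of 10 other lineage bHLH genes, 7 passed the filter, and MYF5, MYOD1 and TCF21 did not. TWIST1 and LYL1 rose from BC1 to APLNR+, TAL1 and LYL1 rose in CD31+CD34+, where TWIST2 fell, and TWIST1 fell in CD43+. TAL1, which drives the blood program, was at 0, 0.0608, 71.2 and 184 FPKM in the order of differentiation, and LYL1 at 0.411, 7.16, 102 and 231 FPKM. Both were highest in HPCs, where among the 5 bHLH genes described above the highest value was that of HAND2, at 1.54 FPKM. No gene of these lists fell by at least 2 from BC1 to APLNR+ (2.29% of all genes did), and none showed such a rise between HEPs and HPCs (2.28%).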
